A study of Mus musculus with 12 samples.

Results

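Caspases are proteases that cut proteins after aspartate and are made as inactive precursors. Inflammatory caspases (Casp1, Casp4 and Casp12 in the mouse) are switched on in inflammasomes or by bacterial lipopolysaccharide and release interleukins and membrane pores, while apoptotic caspases dismantle the cell, either as initiators (Casp2, Casp8 and Casp9) or as executioners such as Casp6. Many cells raise the transcripts of inflammatory caspases when interferon or NF-kB signalling is on, whereas the apoptotic enzymes are regulated largely by cleavage of proteins already present, which an array does not measure.

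The 7 caspase genes Casp1, Casp2, Casp4, Casp6, Casp8, Casp9 and Casp12 were looked up by symbol in the annotation of the array, and 5 of them had a probe, 1 each, among 14411 probes with 1 gene symbol (13840 genes) and 33012 probes in all. These were Casp1 (probe 924714), Casp4 (419016), Casp2 (676713), Casp6 (804355) and Casp8 (918256). No probe was matched to the other 2, Casp9 and Casp12, which are not analysed here. Casp4 is the mouse gene long called caspase-11. The inflammatory caspases are thus represented by 2 probes and the apoptotic ones by 3.

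RNA came from 12 cultures of MMT cells (ATCC CCL-51), a line from a mouse mammary tumour, and was hybridised to single-colour Applied Biosystems AB1700 arrays. Cells had received siRNA to Pea3 (siPea3, n = 4), siRNA to Erm (siErm, n = 3) or a control siRNA (siCtrl, n = 3), or were not transfected (untransfected, n = 2). Pea3 and Erm are older names of the ETS transcription factors Etv4 and Etv5. The replicates are biological, per the design text. All groups are the same cell line, and the sources at hand do not state the siRNA sequences, doses or harvest times.

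The values are assay normalized signals on a linear scale, and a probe counts as detected on an array where its signal-to-noise ratio was at least 3. Arrays had 11286 to 13836 detected probes. The fewest were on siPea3 array 2, where the upper quartile was 7.47 against 10.2 to 14.4 elsewhere, so results that rest on that array are given with and without it. The targeted gene Etv4 averaged 19.0 ± 2.17 in siPea3 cells (mean ± SD, with n as above), against 34.9 ± 9.77 in siErm, 36.9 ± 5.89 in siCtrl and 41.3 ± 0.750 in untransfected cells. Etv5 was detected on 0 of 4 siPea3, 0 of 3 siErm and 2 of 3 siCtrl arrays, and stood at 23.7 and 1.05 on the untransfected arrays, the second undetected. Its mean was 0.713 in siPea3 cells and 0.940 in siErm cells, so this probe does not check the siErm label. Of 8 epithelial markers, Krt8, Krt18, Krt19, Krt14 and Cldn4 were detected on 12 of 12 arrays, and Krt5, Cdh1 and Epcam on none. Of 6 fibroblast or mesenchymal markers, Vim and Dcn were detected on all 12 arrays, Pdgfra on 11, Pdgfrb on 10, Col1a2 on 7 and Col1a1 on 6. The summed signal of the epithelial markers was 450.2 to 766 on siPea3, 754 to 991 on siErm, 841 to 1277 on siCtrl and 1755 to 1867 on untransfected arrays. That of the mesenchymal markers was 4437 to 7212, 6375 to 7372, 5653 to 9174 and 8168 to 8960 in the same order. The part of either sum in the results below was not tested. Probes for macrophage and T cell markers (3 each) summed to at most 3.66 and 3.78 on any array. Those for 3 endothelial markers summed to at most 4.53, with Cdh5 detected on 6 of 12 arrays, Pecam1 on 2 and Kdr on 1. In RNA from a whole culture, fewer cells of a kind and less RNA per cell cannot be told apart.

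Casp1 and Casp4 are neighbours on mouse chromosome 9, and their promoters are shown because these are the members whose signal moved together with transfection. The sequences are the 250 bases before the RefSeq start, from the RefSeq table of build GRCm38.p6, on the plus strand of each gene, at chr9:5298267-5298516 for Casp1 and chr9:5308599-5308848 for Casp4 (the first of 2 listed starts). Capitals mark matches to the motifs searched on both strands.
Casp1: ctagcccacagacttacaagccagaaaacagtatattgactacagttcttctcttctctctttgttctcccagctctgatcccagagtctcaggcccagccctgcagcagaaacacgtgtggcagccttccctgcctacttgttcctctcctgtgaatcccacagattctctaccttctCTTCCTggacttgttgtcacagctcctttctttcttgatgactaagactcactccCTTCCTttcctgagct
Casp4: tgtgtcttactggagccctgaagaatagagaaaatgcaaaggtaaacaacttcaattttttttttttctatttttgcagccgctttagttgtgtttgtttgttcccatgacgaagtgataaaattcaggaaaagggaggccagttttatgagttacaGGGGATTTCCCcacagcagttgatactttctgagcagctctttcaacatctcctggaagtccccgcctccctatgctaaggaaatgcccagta
The Casp1 window holds the PEA3 site AGGAAG on its minus strand at 71 to 66 and at 16 to 11 bases before the start. This motif of 6 letters is present in 29.6% of 32536 promoter windows of the same length. The Casp6 window, not shown here, also holds AGGAAG, at 76 to 71 bases before its start. The Casp4 window holds the NF-kB consensus in 2 overlapping matches between 93 and 83 bases before the start, and 3.92% of windows have a match. Neither window holds the IRF element (2.98% of windows) or the STAT motif TTCNNNGAA (7.04%). These matches describe the letters only and do not show binding.

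**Figure D1:**
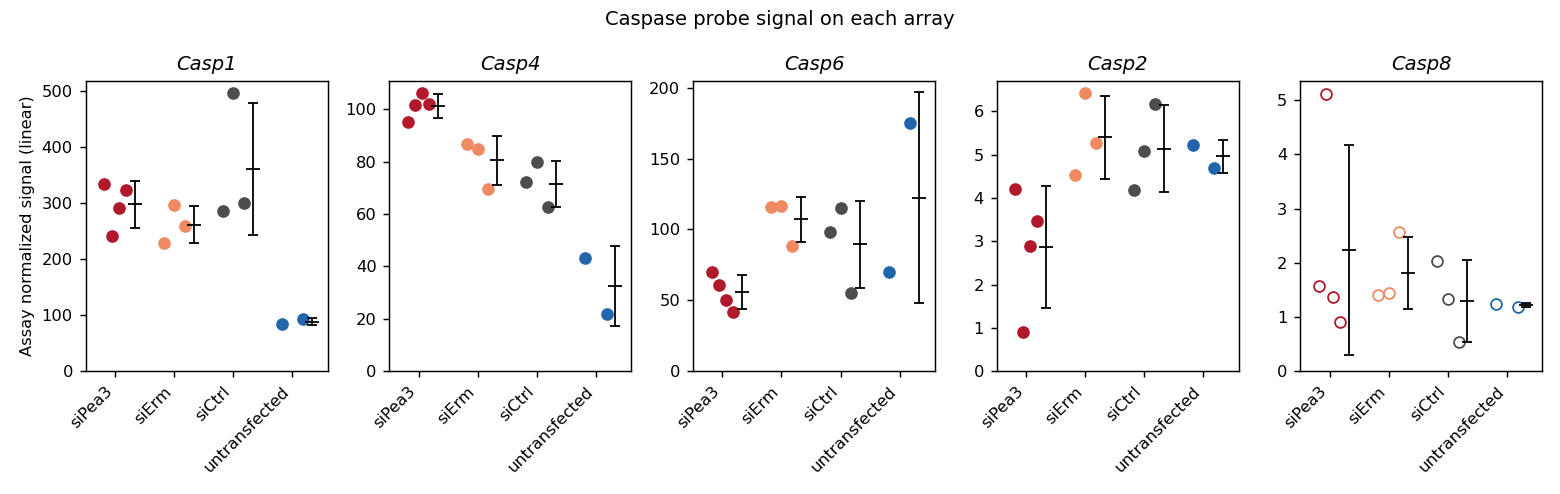
Signal of the 5 caspase probes on each array (linear axes from 0, 1 panel per gene); filled points are detected and open points are not, and the bar beside each group is its mean and SD. Casp1 and Casp4 lie higher on every transfected array than on both untransfected arrays, and Casp8 is detected on none.

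Casp1 encodes caspase-1, the inflammasome protease that matures interleukin 1 beta and interleukin 18. Its signal was 334, 242, 290.4 and 323 on the siPea3 arrays, 229, 296 and 259 on the siErm arrays, 286, 496 and 299 on the siCtrl arrays, and 84.6 and 92.4 on the untransfected arrays. Every transfected array lay above both untransfected arrays, while the 3 transfected groups overlapped one another. Casp1 was thus higher whichever siRNA the cells had received.

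In the limma fit over all 16724 tested probes, with Benjamini-Hochberg adjustment, Casp1 rose in siPea3 over untransfected cells by a log2 change of 1.74 ± 0.29 (standard error), a 3.34-fold difference (adjusted p = 0.00767). It rose in siErm over untransfected cells by 1.56 ± 0.30, or 2.94-fold (adjusted p = 0.0424), and in siCtrl over untransfected cells by 1.98 ± 0.30, or 3.95-fold (adjusted p = 0.0112). These 3 comparisons share the 2 untransfected arrays and are not independent of each other. Ranked from the highest rise, Casp1 stood at place 386, 377 and 210 of 16724 probes in that order. Without untransfected array 1 the adjusted p became 0.0567 for siPea3, 0.196 for siErm and 0.0743 for siCtrl, so no call held. The siErm call was also lost without any 1 of the other 4 arrays compared, at adjusted p values of 0.0710 to 0.158.

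Casp4 encodes the mouse caspase-11, which binds cytosolic lipopolysaccharide and cleaves gasdermin D. Its signal was 95.02, 101, 106 and 102 on the siPea3 arrays, 86.7, 84.9 and 69.6 on the siErm arrays, 72.3, 79.8 and 62.5 on the siCtrl arrays, and 43.2 and 21.8 on the untransfected arrays. As with Casp1, no transfected array came down to the untransfected ones. The siPea3 arrays were also all above the siErm and siCtrl arrays, while siErm and siCtrl arrays overlapped each other.

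Casp4 rose 3.30-fold in siPea3 over untransfected cells (log2 1.72 ± 0.29, limma adjusted p = 0.00829). In siErm over untransfected cells the log2 change was 1.38 ± 0.31, which did not pass (adjusted p = 0.0751), and in siCtrl over untransfected cells it was 1.21 ± 0.31, also without passing (adjusted p = 0.111). The spread between the 2 untransfected arrays weighs on these values. The siPea3 change was 2.22 without untransfected array 1 and 1.23 without untransfected array 2, and the call held both times. The siErm change was 1.88 (adjusted p = 0.0255) and 0.89 (adjusted p = 0.179), and the siCtrl change 1.71 (adjusted p = 0.0436) and 0.72 (adjusted p = 0.258), in the same order of arrays left out. Whether the 3 changes differ is asked by the comparisons between siRNAs below.

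Of the 4 caspase probes tested, 2 were called higher in siPea3 over untransfected cells (Casp1 and Casp4), where 6.37% of all tested probes were called and 2.55% were called higher. In siErm over untransfected cells 1 was called (Casp1), against 0.783% of all probes, 0.7% higher. In siCtrl over untransfected cells 1 was called (Casp1), against 1.02% of all probes, 0.903% higher. No caspase probe was called lower, against 3.81% (siPea3), 0.0837% (siErm) and 0.12% (siCtrl) of all probes. An unadjusted p under 0.05 was found for 3, 2 and 2 caspase probes in that order, and for 25.2%, 10.2% and 11.4% of all probes. In siPea3 cells 427 probes were called higher and 638 lower than in untransfected cells, but after quantile normalization 927 higher and 524 lower, with a median change of all probes of -0.28 as deposited. Relative to that deposited median, the siPea3 changes of Casp1 and Casp4 were 2.02 and 2.00. For Casp1 and Casp4 the arrays of both groups did not overlap in any of these 3 comparisons, as for 9.48% (siPea3), 11.6% (siErm) and 12.6% (siCtrl) of all probes in the higher direction. With 2 untransfected arrays the exact permutation test cannot give less than 0.0667 for siPea3 and 0.1 for siErm or siCtrl, and Casp1 and Casp4 were at those smallest values.

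**Figure D2:**
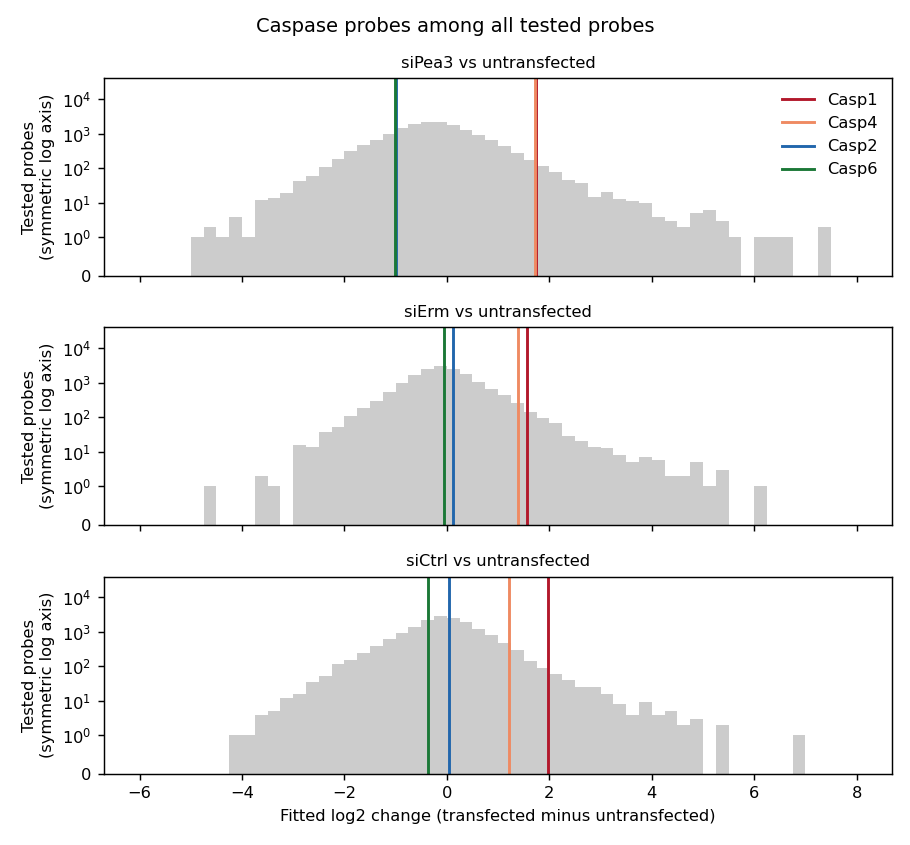
Grey bars count all tested probes by fitted log2 change from untransfected cells (bins of 0.25, symmetric log count axis) for siPea3, siErm and siCtrl cells, and vertical lines mark the 4 tested caspase probes. Casp1 and Casp4 lie in the upper tail in all 3 panels (their lines coincide for siPea3, at 1.74 and 1.72), and in the siPea3 panel the lines of Casp2 and Casp6 coincide at -0.99 and -1.02.

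Of the apoptotic caspases, Casp6 and Casp2 could be tested, and neither was called in any comparison. Casp6 encodes an executioner caspase that cleaves nuclear lamins. Its signal was 69.8, 60.5, 50.35 and 42.1 on the siPea3 arrays, 116, 117 and 88.4 on the siErm arrays, 98.0, 115 and 55.3 on the siCtrl arrays, and 69.8 and 175 on the untransfected arrays. The siPea3 arrays were the lowest group, entirely below the siErm arrays but overlapping the siCtrl and untransfected arrays. The 2 untransfected arrays were the furthest apart of any group.

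Casp2 encodes an initiator that is activated in the PIDDosome. Its signal was low throughout, at 4.21, 0.91, 2.88 and 3.46 on the siPea3 arrays, 4.52, 6.42 and 5.27 on the siErm arrays, 4.17, 5.07 and 6.17 on the siCtrl arrays, and 5.23 and 4.69 on the untransfected arrays. It was nonetheless detected on all 12 arrays, with the smallest signal-to-noise ratio, 3.85, on siPea3 array 2. Here too the siPea3 arrays were the lowest group, below all siErm and untransfected arrays (26.3% of all probes lay entirely below the untransfected arrays), while siPea3 array 1 overlapped the siCtrl arrays.

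Neither change passed. Over untransfected cells, the siPea3 log2 change was -1.02 ± 0.41 for Casp6 (limma adjusted p = 0.155) and -0.99 ± 0.51 for Casp2 (adjusted p = 0.253). Relative to the median of all probes these were -0.74 and -0.71. The Casp6 value was -1.68 without untransfected array 1 and -0.35 without untransfected array 2, and the Casp2 value was -0.51 without siPea3 array 2. In siErm and siCtrl over untransfected cells the estimates of Casp2 and Casp6 ranged from -0.37 to 0.11. The 95% intervals of Casp2 reached from -1.15 to 1.30, so a change of 2-fold in either direction is not excluded. Those of Casp6 reached from -1.33 to 0.90, so a 2-fold fall is not excluded, while a 2-fold rise lies outside them.

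Casp8 encodes the initiator of the death receptor pathway. Its probe was detected on 0 of 12 arrays, with a highest signal-to-noise ratio of 2.04, and it did not enter the fit. Its signal was 1.58, 5.11, 1.36 and 0.900 on the siPea3 arrays, 1.40, 1.44 and 2.57 on the siErm arrays, 2.03, 1.33 and 0.530 on the siCtrl arrays, and 1.24 and 1.19 on the untransfected arrays. These values give no order of the groups, since each is not well above background.

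Setting siPea3 against siCtrl cells compares transfected cells that differ in the siRNA they received. In the limma fit 0 of 4 caspase probes were called, 1 (Casp2) had an unadjusted p under 0.05, and 0.0359% of all probes were called (13.4% had an unadjusted p under 0.05). With the replicate number as a block the 6 calls over all probes became 0, and the caspases again had none. The estimate of Casp4 was 0.51 ± 0.26 (adjusted p = 0.403), or 0.75 relative to a median of -0.24 over all probes, with a 95% interval from -0.056 to 1.07. Its siPea3 arrays were all above its siCtrl arrays, as for 2.84% of all probes. The siPea3 array was therefore bound to be higher at 3 of 3 replicate numbers, which adds nothing further. The exact permutation test for Casp4 gave p = 0.0286, two-sided, the smallest that 35 splits allow, unadjusted, and 1 of 30 such tests made over 5 probes and 6 comparisons. Those splits take no account of a possible pairing by replicate number. With the number as a block the limma estimate was 0.50 ± 0.30 (unadjusted p = 0.136, adjusted p = 0.537). The estimate of Casp2 was -1.03 ± 0.45 (adjusted p = 0.359) and was -0.55 without siPea3 array 2. Casp6 was lower on the siPea3 array at 3 of 3 numbers, but its groups overlapped, and the share of all probes lower at 3 of 3 was not counted. Casp1 was lower in siPea3 cells at 2 of 3 numbers, and its 95% interval ran from -0.80 to 0.31.

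Setting siErm against siCtrl cells makes the same kind of comparison for the siRNA to Erm. Here 0 of 4 caspase probes were called in the limma fit, 0 were without overlap between the groups (5.47% of all probes were), 0 had an unadjusted p under 0.05, and 0% of all probes were called (2.03% had an unadjusted p under 0.05). The estimates ran from -0.43 for Casp1 to 0.31 for Casp6, with 95% intervals from -1.02 to 1.17, in the fit without pairing. With the replicate number as a block these 2 estimates were the same. Their standard errors were then 0.30 and 0.35, against 0.27 and 0.39 without it. By replicate number, Casp1 was lower on the siErm array 3 of 3 times, and Casp4 and Casp6 were each higher 3 of 3 times. The share of all probes with 1 direction at 3 of 3 numbers was not counted, so no shift is read from these counts. With the replicate number as a block, the adjusted p of each of these 3 probes was still 1.00.

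Between siPea3 and siErm cells, 0 of 4 probes were called in the limma fit, 2 had an unadjusted p under 0.05, and 0.00598% of all probes were called (10.3% had an unadjusted p under 0.05). Casp6 was -0.96 ± 0.36 on the log2 scale (adjusted p = 0.435), or -0.75 relative to the median of all probes, and its exact permutation p was 0.0286, two-sided and unadjusted, again the smallest possible. Casp2 was -1.11 ± 0.45 (adjusted p = 0.457), and -0.62 without siPea3 array 2. The siPea3 arrays lay entirely below the siErm arrays for both, as for 10.9% of all probes. Casp4 was 0.34 ± 0.26 higher (adjusted p = 0.645) with an exact permutation p of 0.0286, and its arrays did not overlap, as for 2.73% of probes in that direction.

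**Figure D3:**
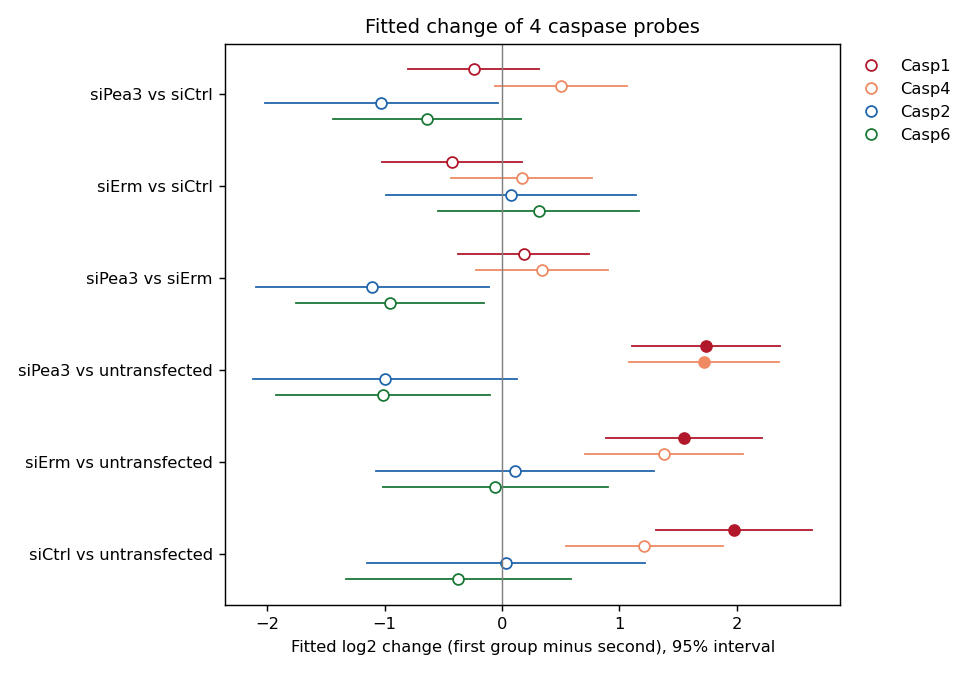
Fitted log2 change (first group minus second) of the 4 tested caspase probes in 6 comparisons, with 95% intervals from the limma fit; filled points passed at an adjusted p under 0.05. Casp1 passed in the 3 comparisons with untransfected cells and Casp4 in siPea3 against untransfected cells, and no point passed between siRNAs.

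Over the 12 arrays, log2 signals of Casp1 and Casp4 correlated at r = 0.79, those of Casp4 and Casp6 at r = -0.57, and those of Casp2 and Casp6 at r = 0.38. These values are descriptions, since the arrays fall into 4 groups and share a scale. Probe sequences were not used here, so whether the probes of related caspases bind each other's transcripts was not tested. The probes most like Casp1 among 9041 with 1 symbol and no missing value were Csprs (r = 0.98), the transporter gene Slc10a6 (r = 0.97) and Bdkrb2, a bradykinin receptor (r = 0.97). Those most like Casp4 were Acad11, an acyl-CoA dehydrogenase (r = 0.98), Tmem140 (r = 0.98) and Mettl6, an RNA methyltransferase (r = 0.98). For Casp2 they were the glycosyltransferase Extl2 (r = 0.97), the kinase Cdk11b (r = 0.96) and Gsr, glutathione reductase (r = 0.96). For Casp6 they were the palmitoyltransferase Zdhhc2 (r = 0.93), Wdr54 (r = 0.91) and the aquaporin Aqp8 (r = 0.91).

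The other genes of the inflammasome and apoptosis pathways, 58 in 8 lists, had 41 genes with a probe and 31 with a tested probe. In siPea3 over untransfected cells 2 of 31 were called higher and 0 lower, beside 2.55% and 3.81% of all tested probes. In siErm and in siCtrl over untransfected cells, and in all comparisons between siRNAs, 0 of 31 were called by limma. Their median log2 change over untransfected cells was 0.16 in siPea3, 0.27 in siErm and 0.11 in siCtrl cells, beside -0.28, -0.094 and -0.057 for all probes.

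The listed sensors and adaptors were mostly dim. Of 15 such genes, 8 had a probe and 4 were tested (Naip2, Naip5, Nod1 and Nod2), with 0 called. Naip2 and Nod1 were the exceptions and were detected on every array. Whether each listed gene acts through caspase-1 was not tested. Pycard, the adaptor ASC that joins sensors to caspase-1, was detected on 0 of 12 arrays, and the sensor Nlrp3 on 1. Among the substrates of inflammatory caspases, Il1b was detected on 0 arrays. Il18 averaged 5.65 ± 1.19 in siPea3, 10.6 ± 1.80 in siErm, 9.77 ± 5.15 in siCtrl and 13.7 ± 2.40 in untransfected cells (mean ± SD), and its siPea3 change over untransfected cells was -1.29 ± 0.37 (adjusted p = 0.0652). Gsdmd, the pore-forming gasdermin D, was at 133 ± 16.7, 169 ± 10.5, 179.6 ± 35.0 and 106 ± 35.1 in the same groups and did not pass in any comparison.

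On the apoptotic side, Fas, the death receptor that recruits caspase-8, had signals of 50.1 ± 23.2 in siPea3, 29.0 ± 10.7 in siErm, 22.1 ± 12.7 in siCtrl and 4.07 ± 0.495 in untransfected cells. It rose 10.8-fold in siPea3 over untransfected cells (log2 3.43 ± 0.66, limma adjusted p = 0.0151, lost without untransfected array 1 at 0.108 and with only the 2 groups fitted at 0.0578). In siErm and siCtrl over untransfected cells it was 2.76 ± 0.69 and 2.22 ± 0.69 without passing (adjusted p = 0.127 and 0.225). Birc3, an inhibitor of apoptosis that ubiquitinates signalling proteins of the TNF receptor pathway, was at 121 ± 26.7, 75.9 ± 15.3, 93.3 ± 19.6 and 43.9 ± 5.32 in the same order of groups. It rose in siPea3 over untransfected cells by 1.44 ± 0.30 (adjusted p = 0.0204), a call lost without siPea3 array 4 (0.0518), untransfected array 1 (0.0833) or untransfected array 2 (0.0699). That call was also lost with no filter on dim probes (0.0586), only the 2 groups fitted (0.0899) or the replicate block (0.0698). In siErm and siCtrl over untransfected cells Birc3 was 0.77 ± 0.31 and 1.07 ± 0.31 higher without passing (limma adjusted p = 0.422 and 0.191). The adaptor Fadd, the apoptosome scaffold Apaf1, cytochrome c (Cycs) and the PIDDosome genes Pidd1 and Cradd were tested and not called. Casp14, the caspase of epidermal cornification, was detected on 0 arrays.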

How the data were processed

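Per the file headers, the authors deposited 1 intensity per probe, called assay normalized, and a coefficient beside it. The range of the intensities shows that they are not logarithms. The headers define that deposited coefficient (CV) only as noise and background signal joined by a hyphen, and it was read here as a ratio of noise to signal, a reading on which all detection calls depend. Of 130615 values over 1, 130570 carried the deposited low-signal mark. No source at hand names the software, the background correction or how arrays were scaled. The series table held the same 392662 values as the separate arrays, and its 3482 blanks were failed measurements (status code over 4096). The intensities were taken to log2 without further scaling, and failed measurements were left out.

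A probe was tested if its signal-to-noise ratio (the inverse of the coefficient) was at least 3 on at least 2 arrays and every group had a value, which kept 16724 probes. Of 5 caspase probes, 4 were tested. All probes were fitted in limma 3.58.1 (R 4.3.3; lmFit and eBayes, 12 arrays, 1 coefficient per group) and called at a Benjamini-Hochberg adjusted p under 0.05. The fit was also run on simulated data with independent noise and no array effects, so that run does not bear on shifts between arrays. Single probes were also compared by exact permutation of arrays. Listed genes with several probes were read from the brightest tested probe.

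Replicate numbers of the titles were checked for pairing. Deviations from group means of same-numbered arrays correlated at 0.22 to 0.31 (siErm with siCtrl) and 0.11 to 0.32 (siPea3 with siCtrl). Arrays of different numbers gave -0.254 to 0.052 and -0.295 to 0.307 in that order. The numbers were taken to pair siErm with siCtrl arrays. The fit reported has no such block, and the block alternative applies the numbers to all 12 arrays. For siPea3 with siCtrl the ranges overlap, so a pairing is possible but not established. Between siPea3 and siErm, same-numbered arrays correlated at -0.043 to 0.073 and were not taken as paired. The untransfected group has 2 numbers and was not taken as paired. Alternatives were other scalings, filters, variance models, only the compared groups, the block, and leaving out each array.

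Promoter letters came from the RefSeq table of build GRCm38.p6. Members, lists and tests were chosen with earlier results of these data known. The text gives a fitted change of a caspase where its unadjusted p was under 0.05 or the arrays of both groups did not overlap, and ranges otherwise. It names listed genes that were called and a few with small p, and the 3 probes most like each caspase. Figures used matplotlib 3.10.9.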

Additional observations from a re-analysis of the deposited data

Results flagged for a closer look

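Among the 5 caspase probes in siPea3 cells, the only group of 4 arrays, 1 value stood apart from its group. The Casp8 signal of 5.11 on siPea3 array 2 lay 0.838 of the group's range from the nearest other array, past the critical value of 0.829 that chance exceeds in about 5% of groups. The probe was not detected on that array, which also had the fewest detected probes and a median signal of 1.65 over all probes, against 1.30 to 1.44 on the others.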

How the results depend on the processing

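The count of called caspase probes in siPea3 over untransfected cells, 2, became 0 with only the 2 groups fitted and was 1 to 2 when 1 array was left out (without untransfected array 1, Casp4 alone). In siCtrl over untransfected cells the count of 1 became 2 (Casp1 and Casp4) with quantile normalization, scaling over detected probes or an intensity trend, and 0 with only the 2 groups fitted or with the replicate block. It was 1 each time an array was left out, but this was Casp4 and not Casp1 without untransfected array 1. In siErm over untransfected cells the count of 1 became 2 with those same 3 settings and with probes detected on all arrays of a group, and 0 with array weights, median scaling over all probes, no filter on dim probes, only the 2 groups fitted or the replicate block. It was 0 to 1 when 1 array was left out. Between siRNAs the count was 0 under every alternative run, and the replicate block changed no other caspase call. No caspase change given with its own standard error in the text changed sign under the alternatives run. Among the small estimates given only as a range, the replicate block turned Casp6 in siErm over untransfected cells to 0.13 (-0.058 as reported) and Casp2 in siCtrl over untransfected cells to -0.071 (0.034). Over 14 or 15 alternatives the log2 rise of Casp1 stayed within 1.68 to 2.06 (siPea3), 1.46 to 1.68 (siErm) and 1.73 to 2.12 (siCtrl), and that of Casp4 within 1.23 to 2.22, 0.89 to 1.88 and 0.72 to 1.71. The cause of these shifts was not tested. The calls over all probes numbered 313 to 1163 (siPea3, 1065 in the fit reported), 61 to 297 (siErm, 131) and 82 to 336 (siCtrl, 171) when 1 array was left out, and 140 to 1732, 16 to 217 and 0 to 289 under the other alternatives. Between siPea3 and siCtrl cells they were 0 to 9 and 0 to 87 (6 as reported), and between siPea3 and siErm cells 0 to 2 and 0 to 69 (1). With 2 untransfected arrays, and Casp8 below detection, the precision is limited by the number of arrays and by signal over background.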
